A study of Mus musculus with 6 samples.

Results

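The miRNAs described here are those of the miR-379 to miR-410 cluster, a run of small RNA hairpins on the distal part of mouse chromosome 12 that is often named after Mirg, the long noncoding RNA gene at its downstream end. The rule that picks them uses position alone: each row of the deposited table on the plus strand of chromosome 12 inside a fixed window around the cluster was taken. No measured value is part of this rule, but the cluster was picked for description with earlier results of these data known. This gave 71 mature miRNAs of 1034 in the table, from 36 hairpin names, of which 35 had both arms in the table and miR-668 only its 3p arm. Each of the 71 names had a single row. The study compared small RNA of nephron progenitors, the self-renewing cells of the outer embryonic kidney from which nephrons form, between embryonic stage E14.5 and the day of birth (P0). Animals of both stages were of the CD1 strain, with no transgene or treatment named, and there were 3 samples for each of the 2 stages. A sample was a pool of up to 24 kidneys from 1 litter, and its progenitors were pulled from briefly digested kidneys with beads against the integrin Itga8, a surface protein of these cells. Small RNA data hold no messenger RNA, so Itga8 and other progenitor genes could not be checked here.

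A miRNA gene is transcribed as a long RNA from which a hairpin is cut. Further cutting leaves a short duplex, and one or both strands, named 5p and 3p after the side of the hairpin they come from, are loaded into an Argonaute protein, where bases 2 to 8, the seed, pair with target messenger RNAs. The cluster lies in the Dlk1-Dio3 imprinted region, in which Dlk1 and Rtl1 are expressed from the paternal chromosome, while Meg3, Rian, Mirg and the miRNAs are expressed from the maternal one. Its miRNAs are known mainly from brain, placenta and embryonic tissues, and several, such as miR-134, miR-329, miR-485 and miR-381, were studied for their effects on dendrites and synapses.

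The sequences of the members on which the results turn are shown so that their seeds and shared stretches can be compared. They are the mature RNAs of RefSeq (GRCm38.p6), which matched 67 of the 71 members by name, and the seed is in capitals. The first 4 are the most abundant members, all from 5p arms.
miR-379-5p: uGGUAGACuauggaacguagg
miR-382-5p: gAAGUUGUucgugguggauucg
miR-411-5p: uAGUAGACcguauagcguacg
miR-541-5p: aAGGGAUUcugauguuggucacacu

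The next 6 are the 5 members with the largest falls that passed the test between stages and miR-668-3p, the one that rose.
miR-495-3p: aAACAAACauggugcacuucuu
miR-154-3p: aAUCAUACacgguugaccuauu
miR-380-3p: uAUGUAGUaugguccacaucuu
miR-369-3p: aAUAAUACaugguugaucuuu
miR-543-3p: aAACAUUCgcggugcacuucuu
miR-668-3p: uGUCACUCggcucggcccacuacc
The letters differ in base composition: the G and C content was 23.81% in miR-369-3p, 36.36% in miR-495-3p, miR-154-3p and miR-380-3p, 45.45% in miR-543-3p and 66.67% in miR-668-3p. miR-495-3p and miR-543-3p end in the same 12 bases but have different seeds.

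Several members resemble each other closely, which bears on how reads were divided between them. Among the 67 members with a sequence, 5 seeds were shared, each by a pair. The pair miR-379-3p and miR-411-3p is shown with miR-300-3p and miR-381-3p, which are alike over most of their length.
miR-379-3p: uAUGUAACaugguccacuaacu
miR-411-3p: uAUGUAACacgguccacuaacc
miR-300-3p: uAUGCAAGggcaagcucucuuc
miR-381-3p: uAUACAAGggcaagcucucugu
Counted from the 5′ end, with the first-named miRNA's base written first, miR-379-3p and miR-411-3p differ by U10C and U22C, and miR-300-3p and miR-381-3p by G4A, U21G and C22U. The first difference of the latter pair is inside the seed, so the 2 RNAs have different seeds. miR-376b-5p and miR-376c-5p differ from each other by less, with U19G (miR-376c-5p first) over 22 bases. The counts of such pairs depend on how the authors assigned reads, which is not given in the sources used here.

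The cluster spans 38.9 kb, from the first base of miR-379-5p to the last of miR-3072-3p (chr12:109709065-109747949, mm10, plus strand). In the GENCODE release M21 annotation all 71 members lay inside an annotated miRNA gene. The name of the cluster fits only its downstream end: 25 members of 13 hairpins lay inside the annotated Mirg gene (chr12:109729764-109749460), and 46 members of 23 hairpins lay between annotated long genes, upstream of it. Of the 25 inside Mirg, 14 were intronic, 9 were exonic and 2 crossed an exon edge. Mirg itself was not measured. The nearest plus-strand miRNA of the table upstream of the chosen range was miR-370-3p (chr12:109618305-109618326) and the nearest downstream was miR-203-3p (chr12:112130927-112130948), so no member fell close to either limit.

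The depth of the libraries differed. Reads recovered from the deposited TPM values (reads per base of the mature miRNA, scaled to a sum of 1000000 per library) totalled 2649506 to 23691028 per E14.5 library and 21508833 to 34934526 per P0 library, and cluster members took 23689 to 284470 of them. A level of 3 reads corresponded to 0.0863 to 1.14 TPM, so members near 1 TPM were hardly measurable in E14.5 replicate 1. P0 replicate 1 stood apart from P0 replicates 2 and 3: when libraries were scaled to their median ratio over miRNAs (median-of-ratios scaling, which divides all values of a library by 1 factor), its factor was 0.877, against 0.528 and 0.567 in those and 1.47 to 1.71 at E14.5. In read counts over all miRNAs, P0 replicate 1 differed from P0 replicates 2 and 3 with chi-squares per degree of freedom of 12298 and 12861. Against E14.5 replicates 1, 2 and 3 the values were 2169, 3190 and 2608, and between P0 replicates 2 and 3 the value was 430. This measure grows with depth. Counts of members that fell or rose in TPM are given with and without P0 replicate 1. Every marker list of other cell types had lower summed TPM at P0. The range was 26608 to 44921 at E14.5 and 5634 to 8158 at P0 for 2 of 2 endothelial miRNAs, 84422 to 101445 and 33420 to 45898 for 7 of 7 stromal miRNAs, and 4122 to 23183 and 500.2 to 1542 for 5 of 5 epithelial miRNAs of the miR-200 and miR-141 group. It was 1048 to 2217 and 162 to 735 for 4 of 4 neural miRNAs, 242 to 417 and 128 to 194 for 5 of 5 erythroid miRNAs, and 632 to 1202 and 454 to 629 for 4 of 4 leukocyte miRNAs. After median-of-ratios scaling the mean of endothelial, epithelial and neural miRNAs was lower at P0 and that of stromal, erythroid and leukocyte miRNAs was higher. No listed marker was at 0 in all libraries. The part of these cells in the results on the cluster was not tested, and in bulk samples fewer cells of a type and less of an RNA per cell cannot be told apart.

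As a whole the cluster made up 1.17 ± 0.244% of the TPM at E14.5 and 1.07 ± 0.320% at P0 (mean ± SD of 3 libraries). Values by library are listed in the order of replicates 1, 2 and 3 throughout. The summed TPM of the cluster was 9062, 12114 and 13896 for the embryonic stage, with a mean of 11691 ± 2444. For the newborn stage it was 6974, 12463 and 12571, with a mean of 10669 ± 3201, and the stages overlapped. The other 30 miRNAs of the imprinted region, on the same strand upstream (the Meg3, Rtl1 antisense and Rian miRNAs), summed to 4627 ± 939 TPM at E14.5 and 3944 ± 474 TPM at P0. The cluster total was 2.53 ± 0.157 times theirs at E14.5 and 2.66 ± 0.529 times theirs at P0. Scaling turned the direction of the total: scaled by median ratios, the cluster stood at 5994, 8245 and 8105 at E14.5 and 7952, 23603 and 22169 at P0, where P0 replicate 1 lay among the E14.5 libraries. The other miRNAs of the region went from 2958 ± 579 to 6434 ± 2239 on that scale. No test was made of these sums.

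Beneath that total, the composition of the cluster differed between the stages. The 12 most abundant members carried 76.8%, 83.7% and 78.6% of the cluster's TPM at E14.5 and 87.9%, 94.8% and 95.8% at P0, with no overlap. One miRNA, miR-382-5p, made up 10.6%, 13.7% and 15.1% of the cluster's reads at E14.5 and 11.9%, 44.5% and 43.8% in P0 replicates 1, 2 and 3. Its 95% Wilson intervals were narrow, 10.2 to 11% in the shallowest library and 44.3 to 44.7% in P0 replicate 2, and covered counting error only. With miR-382-5p taken out, a choice made after its values were seen, the cluster summed to 10124 ± 1868 TPM at E14.5 and 6741 ± 509 TPM at P0, and every P0 library was below every E14.5 library in TPM. After scaling the direction turned, with 6456 ± 951 at E14.5 and 10911 ± 3382 at P0.

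Between stages, 61 members with a mean of at least 1 TPM could be tested. On the deposited TPM scale 26 fell and 1 rose at P0 (limma on log2(TPM + 1), Benjamini-Hochberg adjusted p under 0.05 over 670 miRNAs), beside 32.8% of all tested miRNAs that fell and 1.34% that rose. The median log2 fold change was −1.38 for the 61 members and −1.20 for all 670. Most miRNAs were therefore lower in TPM at P0, cluster or not, and the share of cluster members that fell has to be read against that. Median-of-ratios scaling shifted the median of all miRNAs by 1.02 on the log2 scale, to −0.17. On that scale 5 members fell and 1 rose, beside 5.22% and 5.67% of all tested miRNAs, and the median of the members was −0.45. All 6 were also among the 27 called in TPM. p-values here measure the spread between 3 litter pools of a stage.

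The groups did not overlap in any of the 27 called members. Over all 61, all P0 values were below all E14.5 values in 38 members, beside 46.4% of all tested miRNAs, and above them in 1, beside 3.13%. After scaling these counts were 16 and 5 of 61, beside 19.6% and 15.8%. P0 replicate 1 was the highest P0 library in 21 of the 26 members that fell. Without it 35 members fell and 3 rose in TPM, beside 53.4% and 7.76% of all tested miRNAs, and 19 fell and 11 rose after scaling, beside 26.4% and 22.2%. Leaving out E14.5 replicate 1, 2 or 3 left 19, 16 and 9 members that fell, beside 16.4%, 22.7% and 9.70% of all tested miRNAs, and leaving out P0 replicate 2 or 3 left 17 each, beside 16.7% and 20.0%. The median of the members stayed between −1.59 and −1.32 in these 5 fits. The rise was called without E14.5 replicate 2, beside 0.746% of all tested miRNAs. By limma no rise was called without E14.5 replicate 1 or 3 (beside 0.149% each) or P0 replicate 2 or 3 (beside 0.299% each), with 1 member higher at an unadjusted p under 0.05 in each of these 4 fits. The 9 members called lower in all 6 fits with a library left out, beside 9.10% of all tested miRNAs, were miR-411-3p, miR-380-3p, miR-758-3p, miR-543-3p, miR-495-3p, miR-300-5p, miR-154-3p, miR-410-5p and miR-410-3p.

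The most abundant member was miR-379-5p in every E14.5 library and in P0 replicate 1, and miR-382-5p in P0 replicates 2 and 3. miR-379-5p (chr12:109709065-109709085), from the first hairpin of the cluster, was at 2094, 2685 and 3113 TPM at E14.5 and at 2227, 3279 and 3263 TPM at P0. The stages overlapped, and its log2 fold change of 0.15 (SE 0.46) had an adjusted p of 0.814 (limma). Scaled, it was 1.43 (SE 0.46, limma adjusted p = 0.0686), and 1.85 without P0 replicate 1 (limma adjusted p = 8.60e-04).

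miR-382-5p (chr12:109733781-109733802, in a Mirg intron) was at 950.2, 1658 and 2091 TPM at E14.5 and at 814, 5506 and 5463 TPM at P0. P0 replicates 2 and 3 were above every E14.5 library and P0 replicate 1 was below every one. With all libraries it did not pass the test (log2 fold change 0.96, SE 0.71, limma adjusted p = 0.286), nor after scaling (2.25, SE 0.83, limma adjusted p = 0.0900). Without P0 replicate 1 it was called higher at P0, by 1.88 in TPM and 3.39 after scaling (limma adjusted p = 6.46e-04 and 1.48e-04).

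miR-411-5p (chr12:109710190-109710210), whose hairpin is the next after miR-379, was at 969.5, 1109 and 1139 TPM at E14.5 and 1165, 659 and 779 TPM at P0. P0 replicate 1 was the highest of the 6 libraries and P0 replicates 2 and 3 were the lowest (log2 fold change −0.34, SE 0.49, limma adjusted p = 0.574). miR-541-5p (chr12:109742422-109742446), in a Mirg intron, was at 670.1, 1332 and 1191 TPM and 369, 707 and 767 TPM. Its stages overlapped through E14.5 replicate 1 (log2 fold change −0.80, SE 0.53, limma adjusted p = 0.242). Both had a positive difference after scaling, 0.94 and 0.48, which passed the test in 1 of the 6 scaled fits with a library left out, that without P0 replicate 1.

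miR-134-5p (chr12:109734145-109734166, in a Mirg exon), known from neurons, where it limits the size of dendritic spines, was at 576, 893 and 765 TPM at E14.5 and 306, 518 and 694 TPM at P0. miR-409-3p (chr12:109743204-109743225) was at 322, 698 and 687 TPM and 246, 284 and 281 TPM, with all P0 libraries below all E14.5 libraries. Neither passed the test (log2 fold changes −0.61, SE 0.53, and −0.99, SE 0.53; limma adjusted p = 0.357 and 0.149). After scaling both differences were positive, at 0.67 and 0.29 (limma adjusted p = 0.394 and 0.705), and the stages of both overlapped. Without P0 replicate 1 the scaled values were 1.22 and 0.59 (limma adjusted p = 0.0107 and 0.220). The near-identical miR-300-3p and miR-381-3p were ordered differently over the libraries. miR-300-3p was at 312, 426 and 393 TPM and 281, 263 and 208 TPM, each P0 library below each E14.5 library. miR-381-3p was at 272, 228 and 318 TPM and 130.2, 333 and 375 TPM, with P0 replicate 1 lowest and P0 replicates 2 and 3 highest. Neither difference passed the test (−0.59, SE 0.50, and −0.09, SE 0.57; limma adjusted p = 0.358 and 0.917), and the difference between the 2 was not tested. After scaling the order of the stages turned for miR-300-3p, with 207, 290 and 229 at E14.5 below 321, 498 and 367 at P0, and the differences of the 2 RNAs were 0.70 and 1.19 (limma adjusted p = 0.266 and 0.184). Both passed the test as higher at P0 in the scaled fit without P0 replicate 1 (0.83 and 1.90, limma adjusted p = 0.0489 and 0.00101).

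Of the 12 most abundant members, miR-376b-3p and miR-369-3p fell in TPM. miR-376b-3p (chr12:109723508-109723528), whose family of hairpins is a known substrate of adenosine-to-inosine RNA editing, was at 334, 492 and 407 TPM at E14.5 and 212, 100.2 and 48.7 TPM at P0. P0 was below E14.5 throughout (log2 fold change −1.99, SE 0.61, limma adjusted p = 0.0265), while scaled it was −0.71 (SE 0.51, limma adjusted p = 0.340). The call in TPM was kept in 1 of the 6 fits with a library left out, that without P0 replicate 1. From the miR-369 hairpin, miR-369-5p (chr12:109743431-109743452) was at 173, 193 and 242 TPM and 77.0, 78.4 and 75.1 TPM, every P0 library below every E14.5 library, and just missed the threshold (log2 fold change −1.37, SE 0.52, limma adjusted p = 0.0563). After scaling its stages overlapped and the difference was −0.10 (limma adjusted p = 0.892). miR-299a-3p (chr12:109710676-109710697) was at 76.9, 145 and 201 TPM and 155, 81.1 and 84.7 TPM, and the stages overlapped (log2 fold change −0.36, SE 0.59, limma adjusted p = 0.631). After scaling the difference turned to 0.92 (limma adjusted p = 0.199), with all P0 libraries above all E14.5 libraries.

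**Figure D1:**
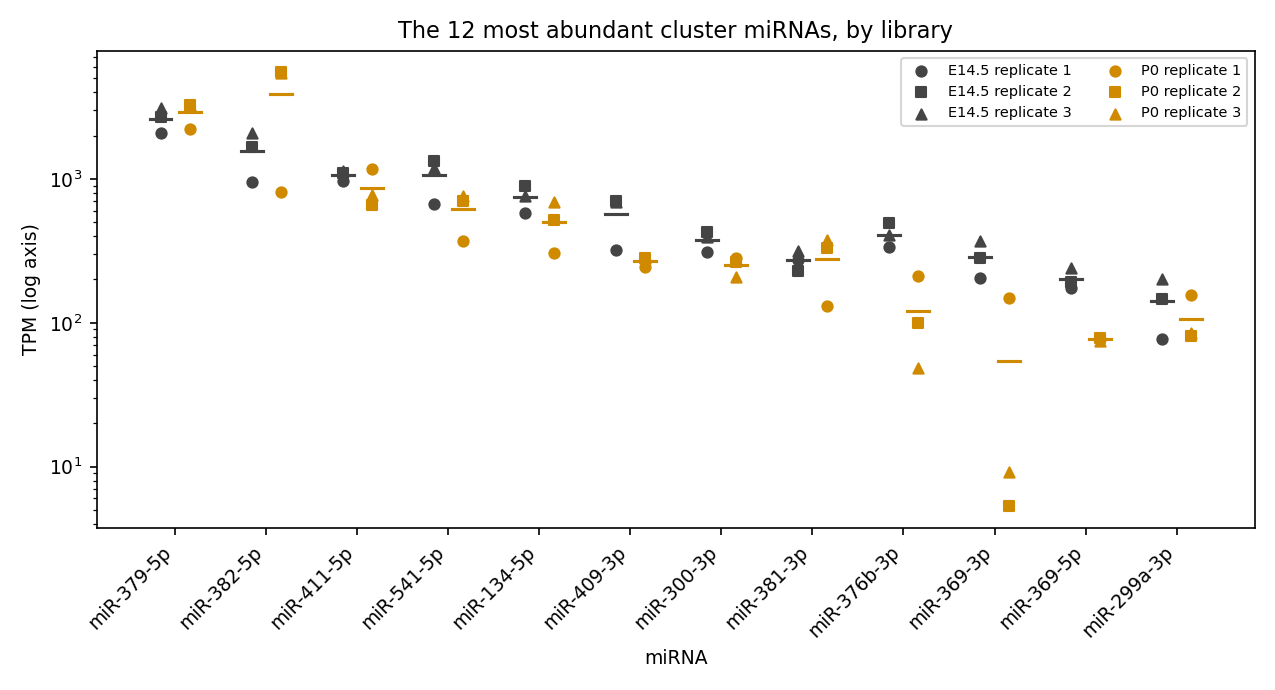
TPM (log axis) of the 12 most abundant members of the cluster in each library, with E14.5 in grey and P0 in orange, the replicates as circles, squares and triangles, and the stage mean as a bar. miR-382-5p reached 5506 and 5463 TPM in P0 replicates 2 and 3 against 814 TPM in P0 replicate 1, and miR-369-3p was at 5.29 and 9.24 TPM in those libraries against 149 TPM in P0 replicate 1.

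The miR-299a hairpin calls for a caution on counting. A second hairpin, Mir299b, lies on the opposite strand over the same bases. The RNA of the opposite strand, miR-299b-5p, holds 21 bases of miR-299a-5p in a row, and miR-299b-3p holds 18 of miR-299a-3p.
miR-299a-5p: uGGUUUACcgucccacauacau
miR-299b-5p: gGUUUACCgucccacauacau
miR-299a-5p was at 68.5, 79.9 and 83.0 TPM at E14.5 and 67.1, 15.7 and 11.5 TPM at P0. miR-299b-5p was at 91.8, 92.6 and 96.4 TPM and 86.1, 25.8 and 13.8 TPM, so P0 replicates 2 and 3 were the lowest libraries of both. How reads that fit both were divided is not given in the sources used here, and the values of both are uncertain for that reason.

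Of the members that fell, the 5 with the largest changes in TPM were 3p RNAs. miR-495-3p (chr12:109718795-109718816) was at 202, 50.3 and 373 TPM at E14.5 and 6.59, 4.19 and 8.24 TPM at P0. The lowest E14.5 library was several times the highest P0 library. It fell by 4.46 on the log2(TPM + 1) scale (SE 0.73, limma adjusted p = 0.00339) and had a log2 fold change of −3.26 after scaling (SE 0.70, limma adjusted p = 0.0311). Its call held with any 1 library left out in TPM. After scaling it held in 2 of those 6 fits, without E14.5 replicate 2 or P0 replicate 1. miR-495 is one of the members studied in neurons.

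miR-154-3p (chr12:109738474-109738495), which gives a family of the cluster its name, was at 54.9, 46.0 and 81.6 TPM at E14.5 and 2.90, 0.855 and 6.19 TPM at P0. All P0 libraries were far below all E14.5 libraries. It fell by 4.01 in TPM (SE 0.64, limma adjusted p = 0.00332) and had a log2 fold change of −2.92 after scaling (SE 0.65, limma adjusted p = 0.0311). miR-380-3p (chr12:109711842-109711863) was at 159, 84.2 and 177 TPM and 8.77, 6.21 and 12.4 TPM, again with a wide gap between the stages. It fell by 3.77 in TPM (SE 0.59, limma adjusted p = 0.00332) and had a log2 fold change of −2.55 after scaling (SE 0.54, limma adjusted p = 0.0311).

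miR-543-3p (chr12:109717304-109717325), which lies close to miR-495-3p and shares its 3′ end, was at 38.2, 30.5 and 76.9 TPM at E14.5 and 3.48, 2.52 and 2.89 TPM at P0. The 3 P0 libraries were close together and all below E14.5. It fell by 3.54 in TPM (SE 0.59, limma adjusted p = 0.00339) and had a log2 fold change of −2.41 after scaling (SE 0.55, limma adjusted p = 0.0311). miR-758-3p (chr12:109712858-109712876) was less abundant, at 16.8, 10.4 and 18.7 TPM and 1.14, 0.683 and 0 TPM, with 34, 13 and 0 reads in the P0 libraries. It was called in both scales, with log2 fold changes of −3.37 and −2.60 (SE 0.57 and 0.56, limma adjusted p = 0.00339 and 0.0311), values that depend on the added 1 TPM. The TPM calls of miR-154-3p, miR-380-3p, miR-543-3p and miR-758-3p held with any 1 library left out. Their scaled calls held without P0 replicate 1 (limma adjusted p from 0.00356 to 0.00824) and, for miR-154-3p, without P0 replicate 3, and were lost in the other fits (limma adjusted p up to 0.176).

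miR-369-3p (chr12:109743466-109743486, in a Mirg intron), reported to bind AU-rich elements of messenger RNAs, had a different pattern among the P0 libraries. It was at 206, 281 and 372 TPM at E14.5 and 149, 5.29 and 9.24 TPM at P0. P0 replicate 1 lay close under E14.5, while P0 replicates 2 and 3 were more than 10 times lower than that library. It fell by 3.71 in TPM (SE 0.97, limma adjusted p = 0.0131), but not past the threshold after scaling (−2.49, SE 0.89, limma adjusted p = 0.0861). The TPM call was lost without E14.5 replicate 2 or E14.5 replicate 3 (limma adjusted p = 0.0533 and 0.0711). Without P0 replicate 1 its log2 fold changes were −5.12 and −3.70 (limma adjusted p = 4.54e-06 and 2.40e-04).

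One member rose. miR-668-3p (chr12:109734774-109734797, in a Mirg intron) was at 1.73, 7.28 and 2.86 TPM at E14.5 and 9.03, 35.8 and 21.7 TPM at P0. P0 was above E14.5 throughout, with P0 replicate 1 only slightly above E14.5 replicate 2. It rose by 2.20 in TPM (SE 0.67, limma adjusted p = 0.0261) and 3.27 after scaling (SE 0.75, limma adjusted p = 0.0314). At E14.5 it rested on 5 reads in replicate 1 and 16 in replicate 3. The call in TPM was lost without E14.5 replicate 1, E14.5 replicate 3, P0 replicate 2 or P0 replicate 3, and over the 6 fits its adjusted p (limma) ranged from 0.00229 to 0.130. After scaling the call was kept only without P0 replicate 1.

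**Figure D2:**
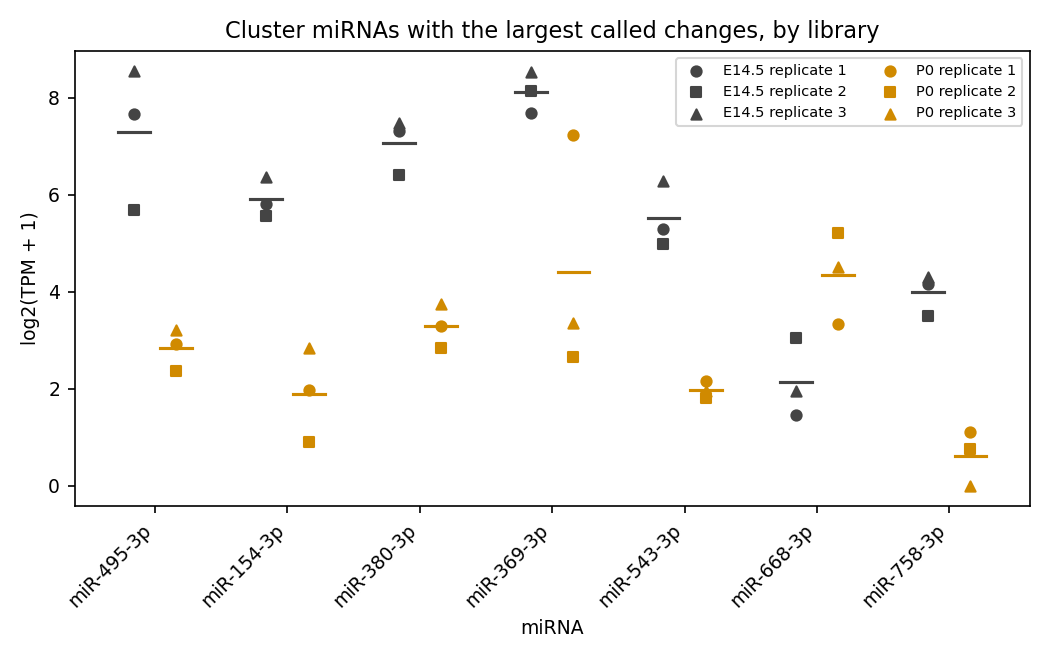
log2(TPM + 1) of the members with the largest changes that passed the test in either scale, in each library, with E14.5 in grey, P0 in orange and bars at the stage means of the log values. miR-495-3p, miR-154-3p, miR-380-3p, miR-543-3p and miR-758-3p had all P0 libraries far below E14.5, whereas P0 replicate 1 of miR-369-3p lay near E14.5 and miR-668-3p was higher at P0.

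The remaining falls were smaller or rested on lower levels. The 21 other members that fell had log2 fold changes from −3.37 (miR-758-3p) to −1.79 (miR-1193-5p) in TPM. They included both arms of the miR-410, miR-376a and miR-1193 hairpins and the 3p arms of miR-379, miR-411, miR-323, miR-329, miR-494, miR-376c, miR-376b, miR-487b, miR-496a, miR-377 and miR-541, together with miR-300-5p, miR-543-5p and miR-154-5p. miR-410-5p was at 12.3, 19.4 and 25.1 TPM at E14.5 and 0.664, 2.84 and 0.880 TPM at P0, and miR-410-3p at 5.96, 14.52 and 12.5 TPM and 1.96, 0 and 1.22 TPM, each with a clear gap between the stages. miR-494-3p was at 162, 224 and 213 TPM and 96.8, 13.4 and 12.01 TPM, and miR-376c-3p at 94.6, 94.0 and 83.7 TPM and 47.9, 2.93 and 2.74 TPM. In both, P0 replicate 1 was below E14.5 and far above P0 replicates 2 and 3. These 4 were chosen as examples after their values were seen. None of the 4 was called after scaling (limma adjusted p = 0.0588, 0.0817, 0.102 and 0.0922), where the stages of miR-494-3p and miR-376c-3p overlapped, and all 4 were called lower in the scaled fit without P0 replicate 1. In TPM the call of miR-494-3p was lost without E14.5 replicate 2 or 3, and that of miR-376c-3p without any 1 of the E14.5 libraries.

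The 10 members not tested had means of at most 0.890 TPM and no library above 3.79 TPM. They were miR-1197-5p, miR-323-5p, miR-758-5p, miR-381-5p, miR-487b-5p, miR-539-3p, both arms of miR-544, miR-134-3p and miR-3072-3p. At the far end of the cluster, miR-3072-5p was at 1.51, 6.62 and 0 TPM at E14.5 and 0.604, 3.83 and 1.21 TPM at P0, and miR-3072-3p had 1, 1 and 0 reads and 20, 7 and 1 reads. Both were near the level of 3 reads in the shallower libraries, where a difference was not detectable at this depth.

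Named families within the cluster were described by counts, read beside the 32.8% of all tested miRNAs that fell in TPM and the 5.22% that fell and 5.67% that rose after scaling. In the miR-376 family (miR-376a, miR-376b and miR-376c, hairpins that resemble each other) 4 of 6 tested members fell in TPM and none rose, with a median log2 fold change of −1.93. After scaling none was called by limma or by limma-voom, 1 had an unadjusted p under 0.05 with either, and the median was −0.67. In the scaled fit without P0 replicate 1, 2 of the 6 fell. In the miR-154 family, taken by name as 33 members of which 27 were tested, 11 fell and 1 rose in TPM (median −1.33), and 1 fell and 1 rose after scaling (median −0.28). For the hairpins studied in neurons (miR-134, miR-329, miR-485, miR-495, miR-379, miR-381 and miR-382), 3 of 12 tested members fell (median −0.83), near the share of all miRNAs for a list of 12, and 1 fell after scaling (median 0.36). In the upstream part of the imprinted region 8 of 28 tested miRNAs fell in TPM (median −1.05), also near that share, and after scaling 2 fell and 2 rose (median 0.20). These lists were written with results of these data known, and no test was made of a list. Without P0 replicate 1 the counts in TPM were read beside 53.4% of all miRNAs that fell and 7.76% that rose. In the miR-376 family 5 of 6 then fell, in the miR-154 family 14 of 27 fell and 3 rose, among the neuronal hairpins 5 of 12 fell and 2 rose, and upstream 13 of 28 fell. After scaling without that library, where 26.4% of all miRNAs fell and 22.2% rose, 9 fell and 7 rose in the miR-154 family, 1 fell and 6 rose among the neuronal hairpins, and 5 fell and 8 rose upstream.

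Within the miR-485 hairpin both arms had positive or near-zero differences. miR-485-3p (chr12:109734946-109734967), whose hairpin is known from neurons for the target SV2A, a synaptic vesicle protein, was at 33.7, 77.1 and 71.7 TPM at E14.5 and 30.2, 203 and 136 TPM at P0. As with miR-382-5p, P0 replicates 2 and 3 were above all E14.5 libraries and P0 replicate 1 was below them (log2 fold change 0.72, SE 0.73, limma adjusted p = 0.434; 1.52 and 0.0118 without P0 replicate 1). After scaling the difference was 1.98 (limma adjusted p = 0.123), and 3.02 without P0 replicate 1 (limma adjusted p = 0.00102). Its RNA shares 10 bases, from position 3, with miR-154-3p, which fell.
miR-154-3p: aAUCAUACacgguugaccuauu
miR-485-3p: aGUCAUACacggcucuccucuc
They differ in base composition, with 36.36% G and C in miR-154-3p and 54.55% in miR-485-3p. miR-485-3p, miR-382-5p and miR-668-3p were the 3 members called higher in TPM without P0 replicate 1, and they were named after their values were seen.

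Along the chromosome the counts were read beside the same 32.8% of all tested miRNAs that fell in TPM. With all libraries, 9 of 21 tested members of hairpins 1 to 12 fell, 9 of 19 of hairpins 13 to 24, and 8 of 21 of hairpins 25 to 36, with medians of −1.69, −1.55 and −1.25. Across the 61 tested members, position and log2 fold change had a Pearson r of 0.10 and a Spearman rho of 0.05, a description over members that share libraries and precursors. In fits without P0 replicate 1 the medians of the 3 stretches lay further apart, at −2.03, −2.13 and −1.04, and 14, 11 and 10 members fell and 0, 1 and 2 rose, beside 53.4% and 7.76% of all miRNAs. Upstream of Mirg 18 of 38 members fell and none rose (median −1.72), and inside Mirg 8 of 23 fell and 1 rose (median −1.25). These became, without P0 replicate 1, 24 of 38 that fell upstream (median −2.05), and 11 of 23 that fell and 3 that rose inside (median −1.04). After scaling, 2, 2 and 1 members of the 3 stretches fell and 1 of the last rose, 4 of 38 fell upstream of Mirg (median −0.62), and 1 fell and 1 rose inside it (median −0.10), beside 5.22% and 5.67% of all miRNAs. The scaled fit without P0 replicate 1 had 12 falls and 4 rises upstream (median −0.85) and 7 of each inside (median 0.16), beside 26.4% and 22.2%. For the 3 stretches it had 6, 6 and 7 falls and 2, 3 and 6 rises. The summed TPM upstream of Mirg was 5651, 6490 and 7826 at E14.5 and 4772, 4964 and 4985 at P0, without overlap. After scaling the direction of this sum turned, from 4240 ± 441 at E14.5 to 7878 ± 2133 at P0. Inside Mirg the summed TPM was 3411, 5624 and 6070 at E14.5 and 2202, 7498 and 7586 at P0, with P0 replicate 1 lowest and the others highest. miR-382-5p alone was most of this sum in P0 replicates 2 and 3. After scaling it was 3208 ± 837 at E14.5 and 10030 ± 6525 at P0, with P0 replicate 1, at 2511, within the range of E14.5.

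**Figure D3:**
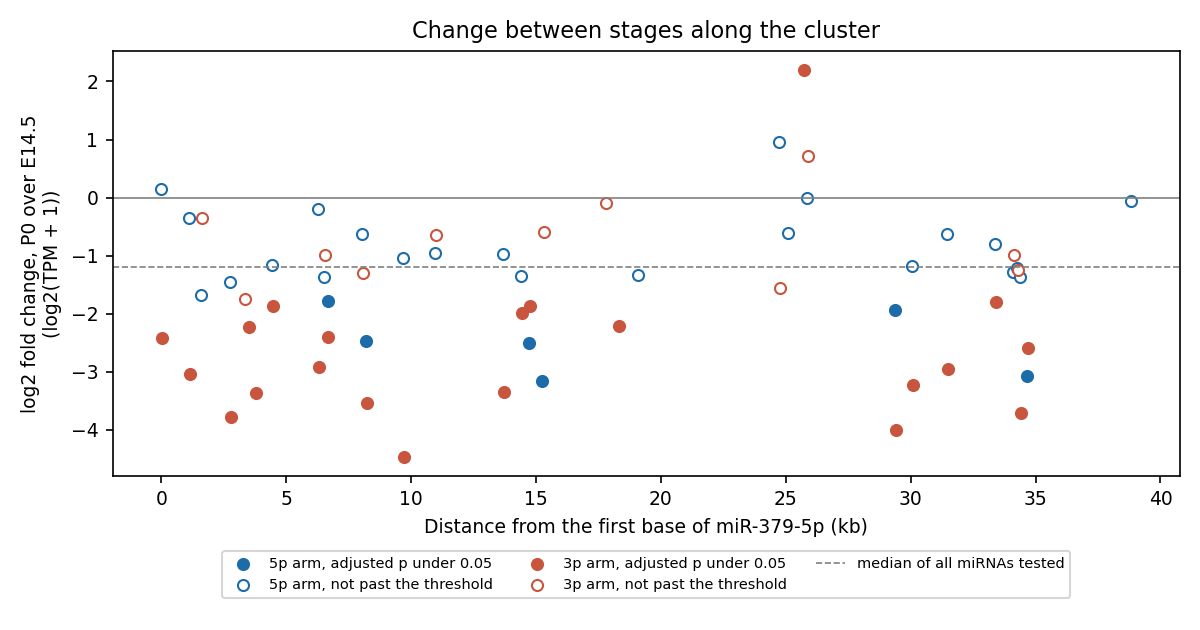
log2 fold change (P0 over E14.5, on log2(TPM + 1)) of the 61 tested members against their distance in kb from the first base of miR-379-5p, with 5p arms in blue and 3p arms in red, filled where the adjusted p is under 0.05, and a dashed line at the median of all tested miRNAs (−1.20). Members that fell are found along the whole length, and 20 of the 26 are 3p arms.

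The arms of the cluster differed in their counts and medians. Among 3p arms 20 of 32 tested members fell and 1 rose, with a median log2 fold change of −2.10. Among 5p arms 6 of 29 fell and none rose, with a median of −1.18. Over all tested miRNAs the arms had similar counts: 105 of 332 3p arms and 105 of 302 5p arms fell, with medians of −1.17 and −1.26. After scaling, 5 of 32 3p arms of the cluster fell and 1 rose (median −0.98), and none of 29 5p arms was called by limma or by limma-voom, with 7 at an unadjusted p under 0.05 in either (median −0.10). Of all tested miRNAs, 10.5% of 3p arms and 11.3% of 5p arms were called after scaling. Without P0 replicate 1 in TPM, 22 3p arms fell and 2 rose, and 13 5p arms fell and 1 rose. The medians were then −2.38 and −1.24, and 175 of 332 3p arms and 172 of 302 5p arms of the whole table fell. After scaling without that library, 13 3p arms of the cluster fell and 4 rose, and 6 5p arms fell and 7 rose. Among all tested miRNAs, 89 3p arms fell and 63 rose on that scale, and 84 5p arms fell and 71 rose.

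The summed signal of the arms differed likewise. The 3p arms summed to 3044, 3627 and 4553 TPM at E14.5 and 1637, 1497 and 1341 TPM at P0, with every P0 library below every E14.5 library. The 5p arms summed to 6018, 8487 and 9343 TPM at E14.5 and 5337, 10966 and 11230 TPM at P0, with the stages overlapping. After scaling the 3p arms summed to 2379 ± 330 at E14.5 and 2355 ± 485 at P0, and the 5p arms to 5069 ± 956 and 15553 ± 8213. The share of the arms does not depend on scaling: 5p arms were 66.4%, 70.1% and 67.2% of the cluster's TPM at E14.5 and 76.5%, 88.0% and 89.3% at P0. P0 replicate 1 was between the E14.5 libraries and the other P0 libraries in this share.

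Within a hairpin, the balance of its arms does not depend on the scaling of a library, apart from the added 1 TPM. It was tested as the difference of log2(TPM + 1) between the 5p and the 3p arm for the 26 cluster hairpins with both arms at a mean of at least 1 TPM, in a limma fit over 207 hairpins of the table. No cluster hairpin had an adjusted p under 0.05 (limma), beside 0.0% of all hairpins. At an unadjusted p under 0.05 there were 8 of 26, beside 27.1% of all. On the tested scale the balance was shifted toward 5p at P0 in 18 of 26 cluster hairpins, with a median change of 0.85, and in 103 of 207 of all hairpins, with a median of −0.01. These counts include hairpins with 1 arm near the floor, where the added 1 TPM can set the sign. An example, chosen after its values were seen, is miR-1193, counted toward 5p with a change of 0.61. Its 5p share of the TPM was 2.03%, 8.12% and 5.31% at E14.5 and 1.97%, 0% and 0% at P0. The stages did not overlap in 7 of 26, of which 5 were shifted toward 5p, beside 31.4% of all hairpins. Of these 5, miR-543 and miR-495 had a 5p arm near the floor, and their 5p shares of the TPM did overlap. For miR-543 the shares were 12.7%, 18.8% and 14.4% at E14.5 and 41.3%, 0% and 7.81% at P0. For miR-495 they were 1.93%, 4.83% and 0.300% and then 18.4%, 14.9% and 0%.

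Single hairpins show the range. Since no hairpin was called, these were picked after their values were seen. The 5p share of the TPM of miR-379 was 91.6%, 96.3% and 92.9% at E14.5 and 98.8%, 99.0% and 99.1% at P0, a change of 2.57 on the log2 scale (SE 0.45, limma adjusted p = 0.0666). Its 3p arm, miR-379-3p, was at 192, 104 and 239 TPM and 27.8, 33.8 and 30.3 TPM and fell by 2.43 (SE 0.56, limma adjusted p = 0.00811), while miR-379-5p did not pass the test. The call of miR-379-3p was lost after scaling (−1.16, limma adjusted p = 0.141) and, in TPM, without E14.5 replicate 3 (limma adjusted p = 0.0672). In miR-411, whose 3p arm has the seed of miR-379-3p, the 5p share was 96.2%, 97.2% and 94.7% at E14.5 and 99.2%, 99.4% and 99.8% at P0, a change of 2.70 (SE 0.50, limma adjusted p = 0.0666). Its 3p arm was at 38.2, 31.8 and 63.6 TPM and 9.20, 3.96 and 1.91 TPM and was called in TPM but not after scaling (limma adjusted p = 0.0588). With a minimum of 10 TPM for both arms these 2 hairpins passed the threshold (limma adjusted p = 0.0372 for both), out of 14 cluster hairpins then tested.

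In miR-380 the more abundant arm was not the same at the 2 stages. The 5p share was 23.2%, 33.6% and 25.8% at E14.5 and 73.0%, 74.2% and 50.9% at P0 (change 2.31, SE 0.51, limma adjusted p = 0.103). miR-380-5p was at 48.1, 42.7 and 61.5 TPM and 23.7, 17.8 and 12.9 TPM, a log2 difference of −1.46 ± 0.56 (SE; adjusted p by limma 0.0599; −0.22 after scaling), while miR-380-3p fell by 3.77. The miR-369 hairpin had 5p shares of 45.7%, 40.7% and 39.4% at E14.5 and 34.1%, 93.7% and 89.1% at P0, where P0 replicate 1 was on the side of E14.5. miR-300 went the other way, with 10.6%, 7.21% and 12.6% at E14.5 and 3.63%, 0.58% and 1.24% at P0 (change −2.57, SE 0.65, limma adjusted p = 0.142). Without P0 replicate 1 the balance passed the threshold in 13 of 26 cluster hairpins (limma), beside 42.5% of all hairpins.

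**Figure D4:**
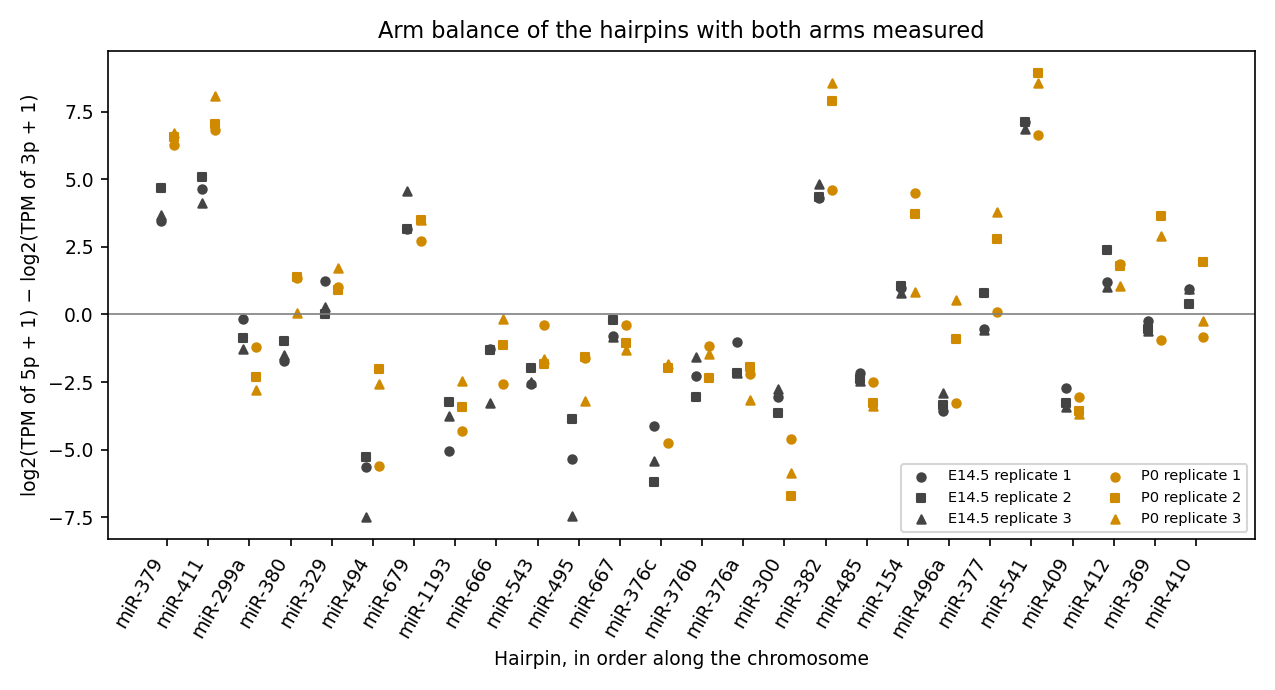
Arm balance, as log2(TPM + 1) of the 5p arm minus that of the 3p arm, of the 26 tested hairpins in the order of the chromosome, with E14.5 libraries in grey and P0 libraries in orange. Values above 0 mean more 5p than 3p. miR-379, miR-411 and miR-380 were higher in all P0 libraries, miR-300 was lower, and in miR-494, miR-382 and miR-369 P0 replicate 1 lay with the E14.5 libraries.

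The log2 fold change had a higher correlation with the base composition of the members than with their abundance. Abundance had a Pearson r of 0.08 and a Spearman rho of 0.02 with the log2 fold change over the 61 tested members. In TPM 5 of 15 members with means of 100 TPM or more fell (median −0.80), near the 32.8% of all tested miRNAs, 16 of 30 between 10 and 100 TPM fell and 1 rose (median −1.87), and 5 of 16 between 1 and 10 TPM fell (median −1.21), again near it. When P0 replicate 1 was left out, the falls were 6 of 15, 23 of 30 and 6 of 16, beside 53.4%, and the rises 1, 2 and 0, beside 7.76%. After scaling, 1, 3 and 1 fell and 0, 1 and 0 rose from the most to the least abundant, beside 5.22% and 5.67%, and the median of the most abundant turned to 0.48. The scaled fit without P0 replicate 1 had 3, 12 and 4 falls and 7, 4 and 0 rises, beside 26.4% and 22.2%. For G and C content, known for 58 tested members, r was 0.57 and rho was 0.59 in TPM and 0.54 and 0.58 after scaling. It was 0.69 and 0.70 among 30 3p arms and 0.33 and 0.31 among 28 5p arms. Over all 582 tested miRNAs with a known sequence it was 0.39 and 0.38. These are descriptions across miRNAs of the same 6 libraries, which are not independent points.

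Split at the cluster's median G and C content of 45.45%, 18 of 30 members at or under it fell in TPM and none rose (median −1.93). Above it, 6 of 28 fell and 1 rose (median −0.97). Over all tested miRNAs the same limit gave 95 of 191 that fell and 1 that rose (median −1.82), and 93 of 391 that fell and 7 that rose (median −0.93). With P0 replicate 1 left out, 25 of 30 members at or under the limit fell, and 8 of 28 above it fell and 3 rose. For all tested miRNAs these were 142 of 191 that fell and 9 that rose, and 168 of 391 that fell and 37 that rose. Among 3p arms at or under the limit, 16 of 19 in the cluster fell (median −2.60) and 51 of 91 in the whole table (median −1.87). Among 5p arms at or under it, 2 of 11 in the cluster fell (median −1.35) and 40 of 92 in the whole table (median −1.68). Above it, 2 of 11 3p arms of the cluster fell and 1 rose (median −0.99), and 4 of 17 5p arms fell (median −0.96), so a higher share of 5p arms fell above the limit than at or under it. With P0 replicate 1 left out, the falls at or under the limit were 18 of 19 and 73 of 91 for 3p arms, and 7 of 11 and 65 of 92 for 5p arms. Above the limit 2 of 11 3p arms of the cluster then fell and 2 rose, and 6 of 17 5p arms fell and 1 rose. After scaling, 4 of 30 members at or under the limit fell, all of them among its 19 3p arms, and above it 1 fell and 1 rose (median 0.20). Of all tested miRNAs, 16 of 191 fell and 11 rose at or under the limit, and 17 of 391 fell and 23 rose above it. The scaled fit without P0 replicate 1 had 13 falls and 2 rises among members at or under the limit and 5 falls and 8 rises above it, against 85 and 26, and 66 and 107, of all tested miRNAs. Taken library by library against the E14.5 mean, G and C content and the difference had an r of 0.24 in P0 replicate 1, 0.61 in P0 replicate 2 and 0.57 in P0 replicate 3. The part of base composition in the stage differences was not tested.

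**Figure D5:**
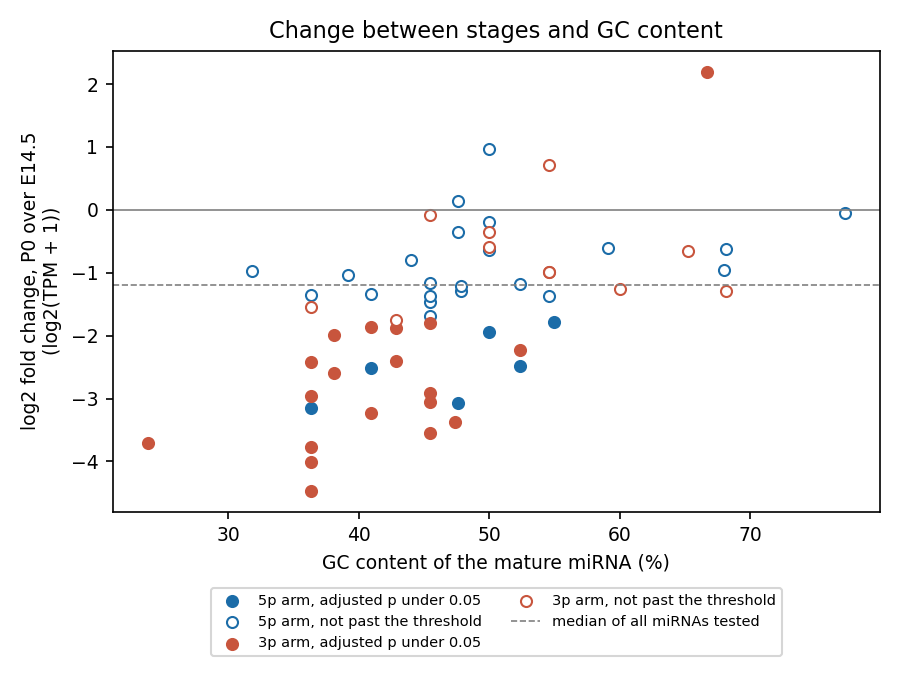
log2 fold change (P0 over E14.5, on log2(TPM + 1)) of the 58 tested members with a known sequence against the percent of G and C in the mature RNA, with 5p arms in blue, 3p arms in red, filled where the adjusted p is under 0.05, and a dashed line at the median of all tested miRNAs (−1.20). The 5 largest falls lie at 23.81 to 45.45% G and C, and miR-668-3p, the one that rose, at 66.67%.

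The authors' deposited table carried a comparison of the stages of its own. An adjusted p under 0.05 stood beside 14 of the 71 members in the authors' deposited table, with 12 lower and 2 higher at P0. It stood beside 10.4% of its 1034 names, with 55 lower and 53 higher. The authors' deposited table gave log2 fold changes of 2.51 for miR-382-5p and 3.22 for miR-668-3p, its 2 higher members. Of the 14, 13 were also called here in TPM and 6 after scaling. The exception in TPM was miR-382-5p, in which P0 replicate 1 lay below E14.5.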

How the data were processed

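Per the labels' protocols, the 6 libraries (3 litter pools per stage) were prepared single-end with a QIAseq miRNA kit. The authors deposited 1 table of 1104 rows with a TPM value per library. When multiplied by the row's length (end minus start), 100% of the deposited TPM values were whole multiples of 1 library-wide unit within 0.001 reads, so reads could be recovered. The submitters' processing notes name featureCounts, DESeq2 1.26.0 and the build mm10. Trimming, alignment and the use of molecular tags are not given in the sources used here. The table also held the authors' mean normalised signal, log2 fold change with its standard error, test statistic (a score), p-value and adjusted p-value, per the file headers. Their model is not given in the sources used here.

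Names carrying a copy suffix were merged, and for 52 names with several positions the row with the highest total was kept. TPM values were tested as log2(TPM + 1) with limma 3.58.1 in R 4.3.3 (trend, 2-sided, stage as the only term) where the mean was at least 1 TPM, with Benjamini-Hochberg adjustment over all 670 such miRNAs and a threshold of 0.05. Fold changes on this scale understate those of low miRNAs. All libraries differed by more than sampling noise (chi-square per degree of freedom at least 177). Alternatives were median-of-ratios scaling (from 546 miRNAs above 0 in every library), upper-quartile scaling, other filters and pseudocounts, summed rows, the replicate number as a block, limma-voom on the recovered reads and leaving out each library. Leaving out a library after scaling was added after seeing the data. The fits were tested on simulated data. Members named with values were the 12 most abundant, the 5 largest called changes each way in either scale and the outer hairpins, and any others are described as chosen after their values were seen or as examples of a count. The members and lists were chosen with earlier results of these data known. GC content came from RefSeq sequences and was known for 94.4% of the members. The sequence of 4 members was not matched: miR-376c-3p, miR-487b-3p, miR-539-3p and miR-485-5p.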

Additional observations from a re-analysis of the deposited data

How the results depend on the processing

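Both scaling and single libraries moved the counts. The members that fell numbered 26 in TPM, 5 after median-of-ratios scaling, 5 after upper-quartile scaling and 4 with limma-voom on the recovered reads, which called 0 rises. Leaving out a library gave 0 to 35 falls and 0 to 11 rises over both scales. In all miRNAs tested, 220 fell in TPM, 35, 22 and 11 under those alternatives and 0 to 358 with a library left out, and 9 rose in TPM, 38 after median-of-ratios scaling, 17 with limma-voom and 0 to 149 with a library left out. After median-of-ratios scaling, no member was called without E14.5 replicate 1, E14.5 replicate 3 or P0 replicate 2 (limma, with 16, 14 and 12 at an unadjusted p under 0.05). The summed cluster, at a log2 ratio of −0.13, was at 1.27 and 0.91 after the 2 scalings. Arm balance was called in 2 cluster hairpins and 5 of all at a minimum of 10 TPM, and in 0 to 13 and 0 to 88 with a library left out. The cause was not tested.

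The replicate numbers were not used to pair the samples in the main fit. Correlations of same-numbered deviations from the stage means were 0.19, 0.18 and 0.04, and those of differently numbered ones ran from −0.18 to 0.08. Whether libraries of the same number shared a step of preparation was not tested. With the replicate number as a block 27 members fell and 1 rose in TPM, and 235 fell and 12 rose over all miRNAs. The block after scaling gave 5 falls and 1 rise, and 29 falls and 38 rises over all miRNAs. Of the 6 libraries, 5 correlated best with the one of their own number, and P0 replicate 3 did not.

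The direction changed under at least 1 alternative for 10 named members, none of which had passed the test in TPM. Under median-of-ratios scaling, without or with the block, then upper-quartile scaling and limma-voom, the log2 values were 0.67, 0.51 and 0.64 for miR-134-5p, 0.92, 0.76 and 0.88 for miR-299a-3p, 0.70, 0.53 and 0.68 for miR-300-3p, 1.19, 1.03 and 1.18 for miR-381-3p, 0.29, 0.13 and 0.26 for miR-409-3p, 0.94, 0.78 and 0.94 for miR-411-5p, 0.48, 0.32 and 0.44 for miR-541-5p, and 0.66, 0.39 and 0.61 for miR-3072-5p, which was at 0.58 with a pseudocount of 0.1. With a library left out, in either scale, the log2 values ranged from −0.88 to 1.22 for miR-134-5p, −0.74 to 1.16 for miR-299a-3p, −0.71 to 0.83 for miR-300-3p, −0.37 to 1.90 for miR-381-3p, −1.36 to 0.59 for miR-409-3p, −0.58 to 1.01 for miR-411-5p, −1.11 to 1.04 for miR-541-5p, −0.76 to 1.32 for miR-3072-5p, −1.48 to 0.12 for miR-369-5p and −0.0069 to 1.85 for miR-379-5p. In E14.5 replicate 1, the shallowest library, 3 reads were 1.14 TPM, which limits members near that level.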
